A study of Mus musculus with 12 samples.

Results

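mmu-miR-5099 is 1 of the 386 mature mouse miRNA rows listed for 12 liver libraries, and its row is described here across 4 diet groups. It was chosen because its level differed between the sons' diets in these same libraries, so its levels and every comparison that contains the sons' diet are given as a description without a test. The libraries came from livers of fasted wild-type male C57BL/6 mice on postnatal day 84. In CO, the mother had the control diet and the son the obesogenic diet from weaning on day 21, and in CC both had the control diet. In OO, mother and son had the obesogenic diet, and in OC the mother had the obesogenic and the son the control diet. Each group had 3 libraries. The obesogenic diet held 20% lipids and 10% simple carbohydrates and came with sweetened condensed milk, and the control diet was a chow with 3% lipids and 7% simple carbohydrates. Which litter each son came from is not in the labels, so some may be littermates, and all p-values and errors measure the spread between these libraries.

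A miRNA is cut from a hairpin-shaped precursor RNA and loaded into an Argonaute protein. It then lowers the output of messenger RNAs that pair with its seed, the bases near its start. In liver, miRNAs act in lipid and glucose metabolism, with miR-122 and miR-33 among the best studied. miRNA numbers were given in order of naming, so the high number of miR-5099 marks it as a late entry.

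The RefSeq hairpin of miR-5099 (gene Mir5099, build GRCm38.p6) lies on the plus strand at chr12:36816205-36816278. It is shown because it is the only sequence of miR-5099 in the reference table used. That table held no entry for the mature RNA, so neither the mature bases nor the seed are marked. Capitals mark the bases that were paired in the minimum free energy fold predicted by RNAfold:
Mir5099 hairpin: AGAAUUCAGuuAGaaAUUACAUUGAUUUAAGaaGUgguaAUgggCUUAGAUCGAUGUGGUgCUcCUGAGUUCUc
The predicted fold was 1 stem of 29 base pairs closed by a loop of 4 bases, and it contained 1 unbroken run of 16 pairs. Its predicted energy was -26.6 kcal/mol over 74 bases, or -0.359 per base, against a median of -0.406 per base for the 1005 mouse hairpins in the same table. The G and C content was 37.8%, against a median of 51.7% over all hairpins, and 7.66% of the hairpins had a lower one.

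In GENCODE vM21 the hairpin overlapped 0 other genes. The nearest gene was the long noncoding RNA gene Gm40394, 61.7 kb to the right. The nearest protein-coding genes were Ispd, a gene of dystroglycan glycosylation, 126.7 kb to the left, and Meox2, a homeobox transcription factor gene, 292.3 kb to the right. The longest stretch that the hairpin shared with an annotated transcript of another gene was 17 bases, in a retained-intron transcript of Mgat4a. Among annotated ribosomal, nuclear, nucleolar, mitochondrial and microRNA transcripts, the longest on either strand was 13 bases. That search covered annotated transcripts only, and the rule by which the authors assigned reads is not given in the sources used here.

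miR-5099 was less abundant in livers of sons that ate the obesogenic diet than in livers of sons that ate the control diet, whichever diet the mother had. Levels are in CPM, the reads of a miRNA scaled to 1 common library total. In CO livers it stood at 187.7, 201.9 and 263.6 CPM, against 531.2, 492.0 and 606.4 CPM in CC livers. In OO livers it stood at 242.5, 212.9 and 225.6 CPM, against 477.8, 448.1 and 391.1 CPM in OC livers. The 2 diets of the sons did not overlap: the highest obesogenic-fed library had 263.6 CPM and the lowest control-fed library 391.1 CPM. Such a full separation in the lower direction was seen for 8 of the 386 rows (2.07%), and since miR-5099 was chosen on these values nothing is read from it.

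**Figure D1:**
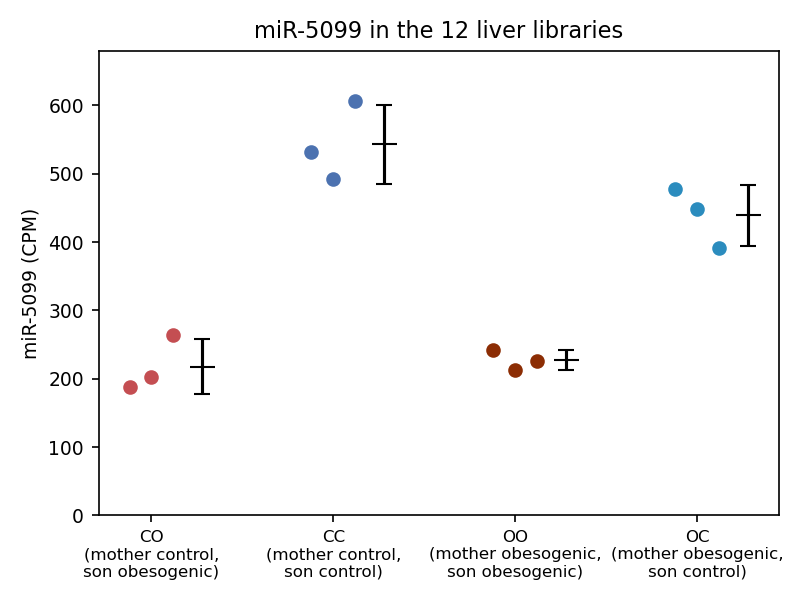
miR-5099 in CPM (vertical axis, from 0) in each of the 12 liver libraries, by diet group (horizontal axis). Points are libraries, and the bar beside them is the mean ± SD of 3 libraries. The obesogenic-fed groups CO and OO sit between 187.7 and 263.6 CPM, all below the control-fed groups CC and OC.

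The group means were 217.8 ± 40.3 CPM in CO and 543.2 ± 58.1 CPM in CC, a ratio of 0.401, and 227.0 ± 14.9 CPM in OO and 439.0 ± 44.0 CPM in OC, a ratio of 0.517 (SD, n = 3 each). Over both maternal diets, the mean was 222.4 ± 27.7 CPM in sons on the obesogenic diet and 491.1 ± 73.4 CPM in those on the control diet (SD, n = 6 each), a ratio of 0.453. Ordered by mean, the groups ran CC, OC, OO and CO. OO and CO overlapped, with 3 OO libraries inside the range of CO. The highest OC library had 477.8 CPM and the lowest CC library 492.0 CPM. By rank among the rows of a library the groups met, at 69 in OC replicate 2 and in CC replicate 2. The share of all rows with such a gap between OC and CC was not counted, so nothing is read from it. In whole liver, fewer cells that hold a miRNA and less of it per cell cannot be told apart.

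Read counts were inferred from the CPM values: within each library 100% of them were whole multiples of 1 step, which was taken as 1 read. The step itself was listed as a value in CO replicate 3 only, and the lowest value stood for 3 to 20 steps in the other libraries. On that reading miR-5099 had from 1436 reads (CO replicate 3) up to 10601 (OC replicate 1). The counting error this gives was between 0.971% and 2.64% of the value per library (SD of a Poisson count), while the spread between libraries of a group, as SD over mean, was 18.5% in CO, 10.7% in CC, 6.55% in OO and 10.0% in OC. In CO replicate 3, the exact Poisson 95% interval of the level was 250.2 to 277.6 CPM, which lay above those of the other 2 CO libraries. These errors and intervals rest on the inferred reads and cover counting error only, since reads made by PCR are not independent molecules.

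The order of miRNAs within a library does not depend on how libraries were scaled to each other. miR-5099 ranked 88th to 102nd of 386 from the top in obesogenic-fed libraries (median 97.5) and 65th to 79th in control-fed libraries (median 69), so the ranks did not overlap. Ratios of miR-5099 to its neighbours in mean level are given as well. Ranks and ratios both use the values on which miR-5099 was chosen, so nothing is read from their separation. By mean over all libraries miR-5099 (356.7 CPM) stood between miR-28c (358.5 CPM) and miR-98-5p, a let-7 family member (354.7 CPM). The ratio of miR-5099 to miR-28c was 0.481 to 0.847 in obesogenic-fed and 1.06 to 1.75 in control-fed libraries. To miR-98-5p it was 0.498 to 0.789 in obesogenic-fed and 1.04 to 1.81 in control-fed libraries. miR-28c itself averaged 342.6 ± 34.4 CPM in CO and 340.0 ± 8.93 CPM in CC, and 396.5 ± 62.8 CPM in OO and 355.0 ± 12.0 CPM in OC (SD, n = 3 each). miR-98-5p averaged 394.2 ± 84.1 CPM in CO and 318.8 ± 32.0 CPM in CC, and 354.6 ± 46.9 CPM in OO and 351.3 ± 95.4 CPM in OC (SD, n = 3 each). Neither passed for the averaged sons' diet by limma, with log2 differences of 0.08 (SE 0.0894, adjusted p = 0.741) for miR-28c and 0.16 (SE 0.145, adjusted p = 0.650) for miR-98-5p, both opposite in sign to that of miR-5099.

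On the scale of log2(CPM + 1), fitted with limma over all 386 rows, the estimate for the sons' diet averaged over maternal diet was -1.14 (SE 0.104, 95% interval -1.36 to -0.91), while the median over all rows was -0.02. It was -1.32 (SE 0.147) for CO against CC and -0.95 (SE 0.147) for OO against OC. For OO against CC it was -1.25, and for CO against OC, which sets a son's own obesogenic diet against his mother's, it was -1.02 (SE 0.147 for both). These comparisons share groups and are not independent of each other. In size, the estimate was the second largest of 386 rows for the averaged sons' diet and for CO against CC, and the ninth largest for OO against OC. By limma with Benjamini-Hochberg adjustment, 3 of 386 rows (0.777%) passed an adjusted p of 0.05 for the averaged sons' diet, all lower, and miR-5099 was 1 of them by the way it was chosen. It was also among the 3 rows (0.777%) that passed for CO against CC, the 2 (0.518%) for OO against OC, the 1 (0.259%) for OO against CC and the 3 (0.777%) for CO against OC, and nothing is read from these counts.

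**Figure D2:**
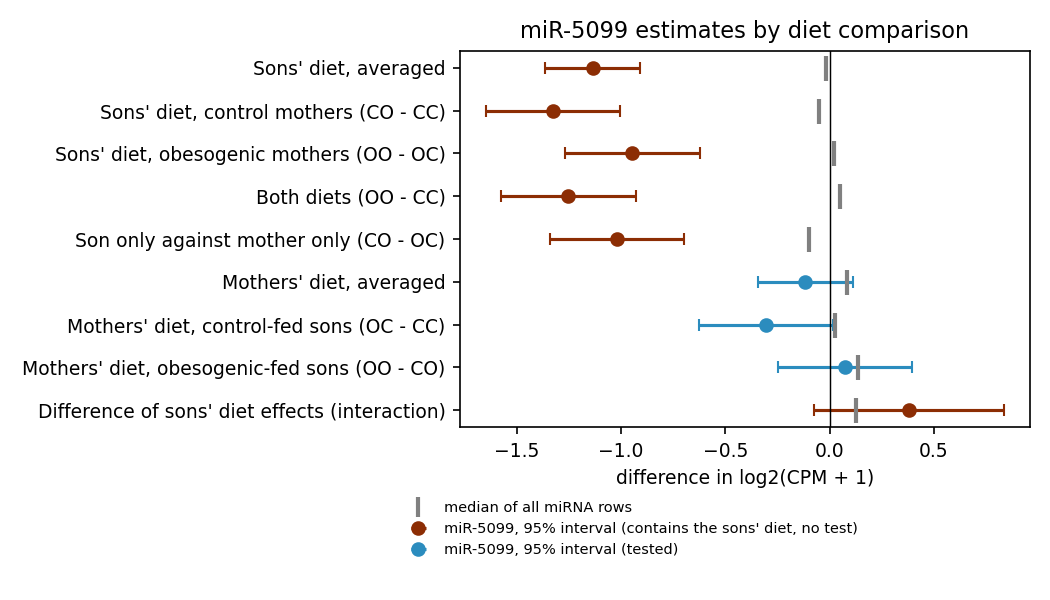
Estimated difference of miR-5099 in log2(CPM + 1) (horizontal axis) for 9 diet comparisons, with 95% intervals from limma, and the median of all 386 rows as a grey tick. The 5 comparisons between the sons' diets lie between -1.32 and -0.95. Since miR-5099 was chosen on the sons' diet, where their intervals lie against 0 is not a test. The intervals of the 3 tested comparisons and of the interaction include 0.

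**Figure D3:**
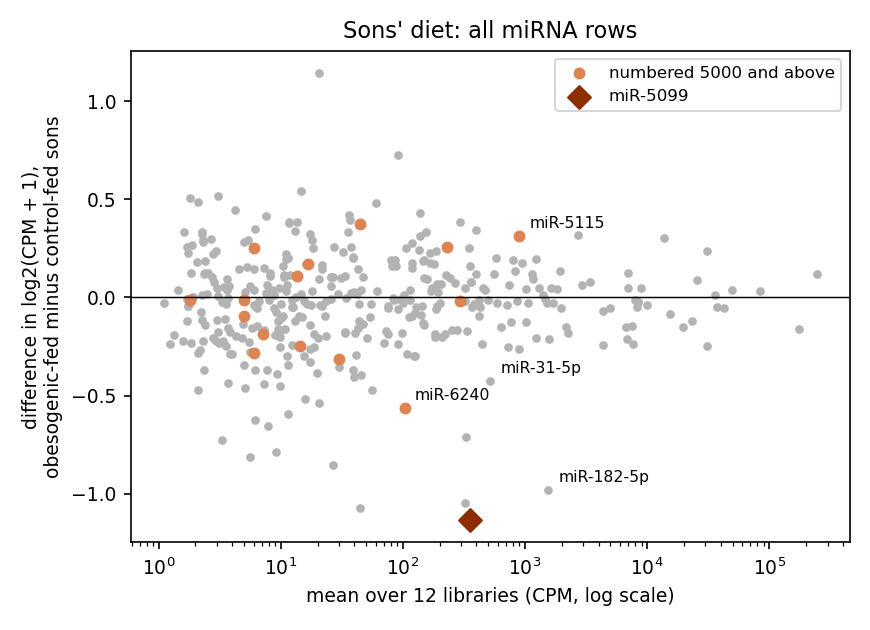
Difference in log2(CPM + 1) between obesogenic-fed and control-fed sons (vertical axis) against the mean over 12 libraries in CPM (horizontal log axis), for all 386 rows. miR-5099 (diamond) lies at -1.14 and 356.7 CPM, below the other rows numbered 5000 and above (orange).

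Comparisons of the mothers' diet were not those the miRNA was chosen on, and were tested. Their errors use the SD within groups that also entered that choice, so the intervals may be too narrow. OC against CC and OO against CO also share group means with the comparisons of the sons' diet. Averaged over the sons' diet, the level was 333.0 ± 119.8 CPM in sons of obesogenic mothers and 380.5 ± 183.8 CPM in sons of control mothers (SD, n = 6 each, a spread that includes both sons' diets). The estimate was -0.12 (SE 0.104, 95% interval -0.34 to 0.11, limma adjusted p = 0.711). That interval did not reach the estimate of -1.14 for the sons' diet, on which miR-5099 was chosen. Litters are not in the labels and the title prefix runs with maternal diet, so no size of change is excluded by it. In control-fed sons, OC against CC, it was -0.31 (SE 0.147, 95% interval -0.63 to 0.02, limma adjusted p = 0.99993, unadjusted p = 0.060). In obesogenic-fed sons, OO against CO, it was 0.07 (SE 0.147, 95% interval -0.25 to 0.40, limma adjusted p = 0.843), against a median of 0.13 over all rows, and its sign turned with TMM factors, with median-of-ratios factors and without CO replicate 1. By limma 0 of 386 rows (0%) passed for the averaged mothers' diet, 0 for OC against CC and 0 for OO against CO, while 27 (6.99%), 4 (1.04%) and 47 (12.2%) had an unadjusted p under 0.05.

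The gap between the sons' diets was set against the mothers' diets as the estimate for OO against OC minus that for CO against CC. Since miR-5099 was chosen on the sons' diet, this difference is given without a test. The interaction estimate was 0.38 on the log2 scale (SE 0.208, 95% interval -0.08 to 0.83), against a median of 0.13 over all rows. The interval includes 0.

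The titles of the libraries carry letters and stems whose meaning the labels do not give, and the final letter runs nearly with the sons' diet: all 6 control-fed titles end in A, as does that of OO replicate 2. That library had 212.9 CPM, 1.04 below the mean of the OC libraries on the log2 scale. OO replicate 3 and OC replicate 2 share a title stem, and they had 225.6 CPM in OO and 448.1 CPM in OC, a difference of -0.99. Both of these checks were chosen after seeing the data. The title prefix splits fully with maternal diet, so a factor behind it and the mothers' diet cannot be told apart. Depth, the read total to which a library's values were scaled, lay between 5.45 and 15.0 M reads (M for mega) in CO and 7.47 and 13.3 M reads in CC, and between 10.5 and 21.5 M reads in OO and 16.9 and 22.2 M reads in OC.

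The liver label was checked by hepatocyte miRNAs, whose 4 listed markers summed to 270932 to 329571 CPM in obesogenic-fed and 257060 to 277964 CPM in control-fed libraries, led by miR-192-5p and miR-122-5p. For markers of other cells, the summed levels overlapped between the sons' diets in every list. Erythroid markers (4 of 5 names measured, led by miR-451a and the row shared by miR-486-5p and miR-3107-5p) summed to 2943 to 8999 CPM in obesogenic-fed against 2862 to 5242 CPM in control-fed libraries. Leukocyte markers (6 of 6, led by miR-142-5p and miR-146a-5p) summed to 2270 to 3383 CPM in obesogenic-fed against 2831 to 4580 CPM in control-fed libraries. Most of this sum was miR-142-5p, with a mean of 2252 CPM over all libraries. miR-223-3p, described below with the lipid and diet miRNAs, had its higher mean on the obesogenic diet. The endothelial markers miR-126-5p and miR-126-3p, measured under 2 of their 4 listed names, summed to 15584 to 28052 CPM in obesogenic-fed against 23722 to 27100 CPM in control-fed libraries. By group these sums were 15584 to 22984 CPM in CO against 24304 to 27100 CPM in CC, which did not overlap. They were 24420 to 28052 CPM in OO against 23722 to 24653 CPM in OC, which did. No other list separated CO from CC or OO from OC, and nothing is read from this one. The obesogenic-fed range was the wider one for the erythroid and endothelial markers. Mesenchymal and stellate markers (5 of 5, led by miR-143-3p and the row shared by miR-199a-3p and miR-199b-3p) summed to 33759 to 46178 CPM in obesogenic-fed against 31521 to 48309 CPM in control-fed libraries. Markers of biliary and other epithelium (5 of 5, led by miR-200b-3p and miR-429-3p) summed to 398.7 to 871.3 CPM in obesogenic-fed against 395.6 to 892.3 CPM in control-fed libraries. Of the muscle, pancreas and brain markers, miR-206-3p, miR-217-5p, miR-216a-5p and miR-124-3p were not among the listed rows. The other 4 of 8, led by miR-133a-3p and miR-375-3p, summed to 61.0 to 1436 CPM in obesogenic-fed against 79.5 to 2151 CPM in control-fed libraries. The part of these cells in the level of miR-5099 was not tested.

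Between libraries of 1 group, miR-5099 varied less than a typical row. Its pooled SD within groups was 0.173 on the log2 scale, against a median of 0.205 for the 50 rows nearest to it in mean level, of which 19 had a smaller SD, and 0.242 for all rows. This SD also entered the test that picked the miRNA out, so it is a description.

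The rows with the most similar profile were found by the root mean square difference between log2(CPM + 1) profiles over the 12 libraries, each centred on its own mean. A completely flat profile would stand 0.595 from miR-5099. The 6 nearest were miR-184-3p (0.347), let-7c-1-3p (0.374), miR-31-5p (0.395), miR-1247-5p (0.411), miR-182-5p (0.415) and miR-99b-3p (0.425), and the next was at 0.442. All 6 distances were larger than the SD of miR-5099 within groups (0.173). Each distance also holds the spread of the other row, which was not taken out. No difference of profile from miR-5099 is therefore read for these 6 miRNAs. Within the 6 libraries of each sons' diet, Pearson r with miR-5099 ran from -0.82 (miR-182-5p) to 0.86 (let-7c-1-3p), both in control-fed sons. None of the 12 relations passed (smallest Benjamini-Hochberg adjusted p = 0.167, exact permutation test). A gap between the sons' diets was what miR-5099 was chosen on, so nothing is read from these rows sharing it. Their RefSeq mature sequences (GRCm38.p6) are shown to compare seeds, bases 2 to 8 counted from the 5′ end, which are in capitals:
miR-184-3p: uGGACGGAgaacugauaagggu
let-7c-1-3p: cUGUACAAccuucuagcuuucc
miR-31-5p: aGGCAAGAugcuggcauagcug
miR-1247-5p: aCCCGUCCcguucguccccgga
miR-182-5p: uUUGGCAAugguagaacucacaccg
miR-99b-3p: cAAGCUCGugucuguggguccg
The 6 miRNAs had 6 different seeds and lie on chromosomes 9, 16, 4, 12, 6 and 17. miR-1247-5p shares chromosome 12 with miR-5099 but lies at 110278094 to 110278115, next to the imprinted Dio3 gene.

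The abundant ones of the 6 were miR-31-5p and miR-182-5p, which is made from 1 cluster with miR-183 and miR-96. miR-31-5p stood at 455.4, 423.4 and 429.0 CPM in CO, against 610.7, 614.8 and 632.4 CPM in CC, and at 434.1, 431.6 and 476.4 CPM in OO, against 591.7, 524.3 and 597.3 CPM in OC. Its libraries separated fully by the sons' diet, as in 8 of the 386 rows (2.07%), with a ratio closer to 1 than that of miR-5099. Those of miR-182-5p and miR-184-3p separated too. These rows were picked for nearness to miR-5099, so nothing is read from their separation. miR-182-5p stood at 809.1, 1330.1 and 898.1 CPM in CO, against 1770.5, 1833.0 and 1637.6 CPM in CC, and at 915.4, 1328.4 and 923.7 CPM in OO, against 2324.0, 1823.5 and 2871.9 CPM in OC. Its group means had another order than those of miR-5099, with OC above CC. The other 4 were low: medians in obesogenic-fed and control-fed libraries were 4.40 and 7.31 CPM for miR-184-3p, a miRNA known from lens and cornea, and 1.49 and 2.58 CPM for let-7c-1-3p. They were 16.6 and 35.8 CPM for miR-1247-5p and 8.00 and 11.01 CPM for miR-99b-3p. The set of nearest profiles depended on these low rows and on 1 library: among rows with a mean of at least 10 CPM, 3 of the 6 stayed nearest (miR-31-5p, miR-1247-5p and miR-182-5p), as did 3 without CO replicate 1 (let-7c-1-3p, miR-184-3p and miR-31-5p).

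**Figure D4:**
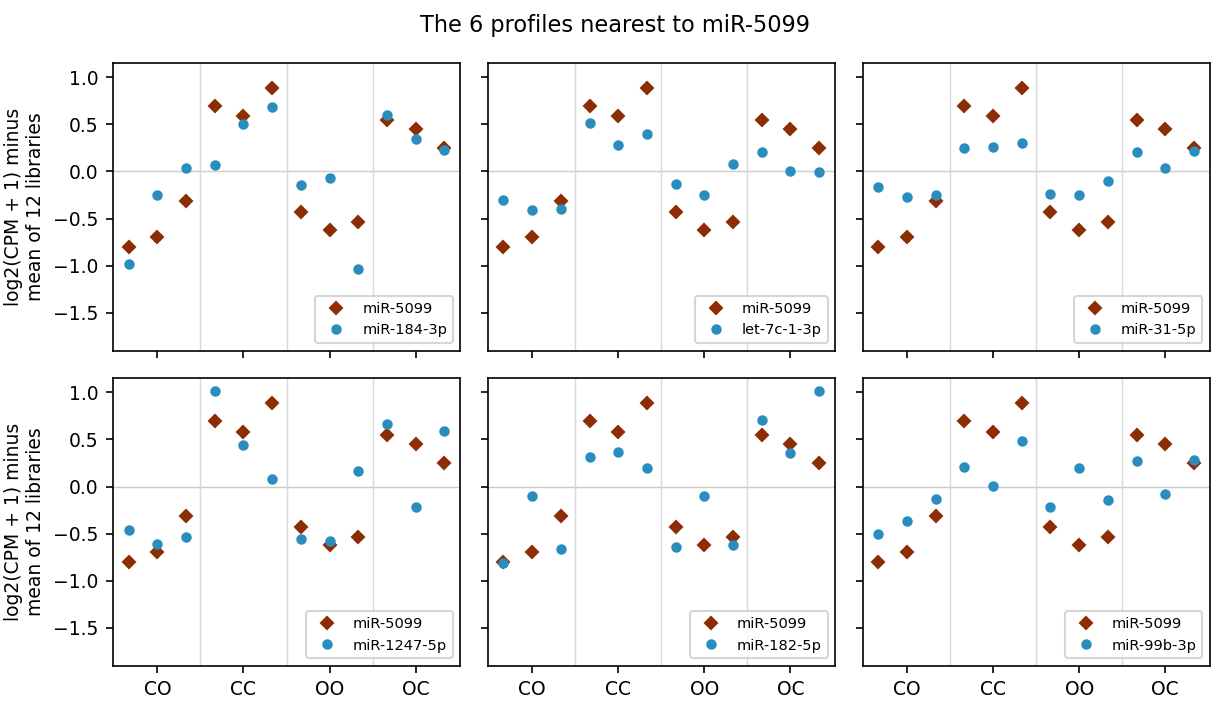
log2(CPM + 1) minus the mean of the 12 libraries (vertical axis) for miR-5099 (diamonds, repeated in each panel) and each of its 6 nearest profiles (circles), by library within the diet groups CO, CC, OO and OC (horizontal axis). Both symbols lie lower in CO and OO than in CC and OC in most libraries.

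The other 15 listed miRNAs with numbers of 5000 and above, late entries like miR-5099, included none that passed. In the averaged sons' diet 0 of 15 rose and 0 fell by limma with Benjamini-Hochberg adjustment over all rows, and 0 had an unadjusted p under 0.05, against 57 of all 386 rows (14.8%). Their median log2 difference was -0.02, as was that of all rows, with 6 estimates above and 9 below 0. miR-5115, at 974.8 ± 260.9 CPM in sons on the obesogenic diet and 822.1 ± 325.8 CPM in those on the control diet (SD, n = 6 each), was the only one of them more abundant on average than miR-5099 (log2 difference 0.31, SE 0.277). miR-6236 had the largest positive estimate, 0.37 (SE 0.256), and miR-5121 one of -0.31 (SE 0.166).

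miR-6240 had the lowest estimate of the 15, at -0.56 (SE 0.536, limma adjusted p = 0.695). It stood at 54.2, 52.1 and 86.1 CPM in CO, against 26.2, 57.2 and 323.6 CPM in CC, and at 55.0, 72.4 and 75.6 CPM in OO, against 80.0, 68.7 and 288.4 CPM in OC. Its higher control-fed mean rested on CC replicate 3 and OC replicate 3, whereas for miR-5099 every control-fed library was high and OC replicate 3 was the lowest of them. Since miR-5099 was chosen on these values, nothing is read from this contrast with miR-6240.

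**Figure D5:**
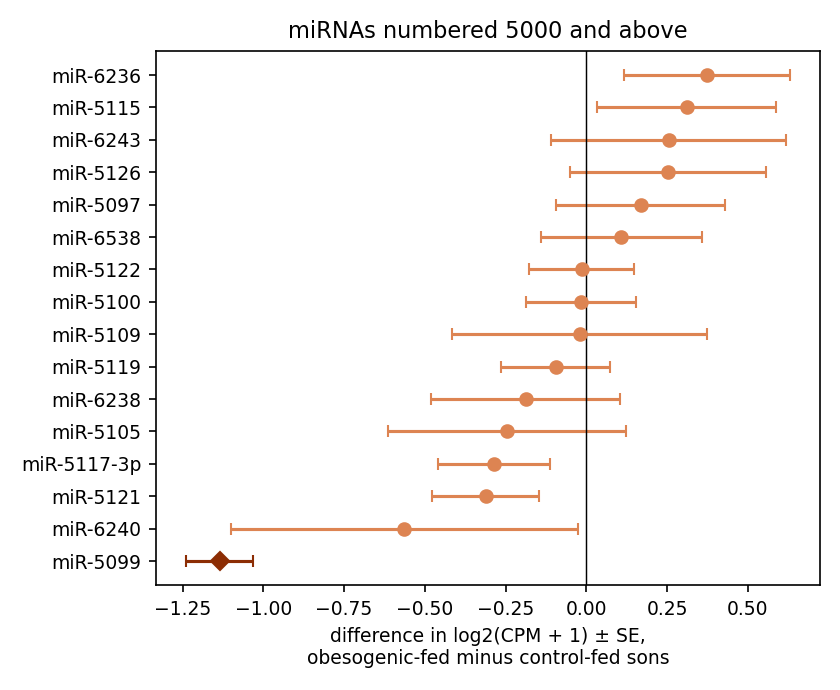
Difference in log2(CPM + 1) between obesogenic-fed and control-fed sons (horizontal axis), with ± SE from limma, for miR-5099 (diamond) and the other 15 miRNAs numbered 5000 and above (circles). miR-5099 lies at -1.14 and the others between -0.56 and 0.37.

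Of the listed rows, 322 matched a RefSeq mature miRNA by name, and these gave the other miRNAs of chromosome 12. Outside the Dlk1-Dio3 imprinted cluster there were 14, of which 0 rose, 0 fell and 14 did not pass by limma, with a median log2 difference of 0.02 and a range of -0.29 to 0.32 for the averaged sons' diet, and 0 had an unadjusted p under 0.05. In the Dlk1-Dio3 cluster 0 of 16 passed by limma, with a median of -0.10, and 2 had an unadjusted p under 0.05. Over all rows 3 of 386 (0.777%) passed and 57 (14.8%) had an unadjusted p under 0.05, so counts of 0 in lists of this size are near the background.

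Of 25 miRNAs linked to lipid metabolism or diet in liver, 24 were measured. By limma 0 rose, 2 fell (miR-182-5p at -0.98, SE 0.153, adjusted p = 0.0074, and miR-31-5p at -0.43, SE 0.0692, adjusted p = 0.0074) and 22 did not pass, with a median of -0.04 beside -0.02 for all rows. An unadjusted p under 0.05 was found for 9 of the 24, against 57 of all 386 rows (14.8%), and the 2 that passed stand beside 3 of 386 rows (0.777%). miR-33-5p, which is encoded in the sterol regulator gene Srebf2 and acts on cholesterol export, averaged 9.14 ± 2.82 CPM in sons on the obesogenic diet and 13.9 ± 1.72 CPM in those on the control diet (SD, n = 6 each, log2 difference -0.59, SE 0.160, limma adjusted p = 0.126). miR-122-5p, the abundant hepatocyte miRNA, averaged 22509 ± 3284 CPM in sons on the obesogenic diet and 24319 ± 1273 CPM in those on the control diet (log2 difference -0.12, SE 0.0811, limma adjusted p = 0.545). The estimate of miR-223-3p had the other sign, at 0.43 (SE 0.164, limma adjusted p = 0.258). Its mean was 114.6 ± 6.35 CPM when the son ate the control diet and 159.9 ± 41.1 CPM when he ate the obesogenic one (SD, n = 6 each). Of the 24 estimates, 11 were above and 13 below 0. The list was chosen with earlier results of these libraries known and is not independent evidence of a direction. The estimate of miR-5099, at -1.14, lay below those of all 24, of which miR-183-5p at -1.07 (SE 0.247, limma adjusted p = 0.0731) was the lowest. Since miR-5099 was chosen on the sons' diet, nothing is read from this order.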

How the data were processed

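Small RNA of 12 mouse livers was sequenced, with 3 libraries in each of 4 diet groups. RNA came from miRNeasy columns and libraries from a TruSeq kit, per the labels' protocols. The submitters' processing notes name Bowtie 1.2.3. The sources used here do not give the build, miRNA reference, read assignment or row filter. The authors deposited CPM for 386 rows, with 0 values at zero. All values were whole multiples of 1 step per library (tolerance 0.001 reads), which gave depths of 5.45 to 22.2 M reads. Columns summed to 0.866% to 1.17% above 1000000.

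log2(CPM + 1) was fitted with limma 3.58.1 (R 4.3.3) as 1 mean per group over all libraries, with a variance trend, 9 contrasts, two-sided tests and Benjamini-Hochberg adjustment over 386 rows at 0.05. Log differences understate changes of low miRNAs. Count models were not run, since the table holds CPM. The fit was tested on simulated data. Folding used RNAfold 2.7.2, and other steps Python 3.11.15, scipy 1.17.1 and matplotlib 3.10.9. Named miRNAs were miR-5099, the 6 nearest profiles, the passing members of lists, the 2 most abundant of each marker list, abundance neighbours and the 4 extreme late-numbered miRNAs. Members of lists and miR-5099 were chosen with earlier results of these data known. miR-33-5p, miR-122-5p, miR-183-5p and miR-223-3p were named after their values were seen. Replicate numbers follow accession order.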

Additional observations from a re-analysis of the deposited data

How the results depend on the processing

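The 5 estimates of miR-5099 between the sons' diets kept their sign and moved by less than 1 SD between libraries (0.173 on the log2 scale) under pseudocounts of 0.25 and 5, TMM and median-of-ratios factors, the 10 CPM filter, a fit of the compared libraries only, log2 depth as a covariate, sample quality weights and leaving out each library. Leaving out 1 library gave -1.21 to -1.09 for the averaged sons' diet, -1.47 to -1.23 for CO against CC, -1.03 to -0.88 for OO against OC, -1.32 to -1.17 for OO against CC and -1.16 to -0.92 for CO against OC. The interaction kept its sign, at 0.23 to 0.56 over all 19 alternatives and 0.28 to 0.52 on leaving out 1 library. With sample quality weights it was 0.56, which lay more than 1 SD between libraries from the reported 0.38. The mothers' diet comparisons passed under none of these (lowest limma adjusted p = 0.499). OO against CO turned its sign with TMM factors (-0.084), with median-of-ratios factors (-0.060) and without CO replicate 1 (-0.025); leaving out 1 library gave -0.025 to 0.22. The cause was not tested. Over all alternatives the number of rows that passed ran from 3 to 12 for the averaged sons' diet (3 as reported; 7 with TMM factors, 8 with median-of-ratios factors, 12 with sample quality weights and 5 without OC replicate 2), 1 to 10 for CO against CC (3), 0 to 4 for OO against OC (2), 1 to 4 for OO against CC (1), 0 to 5 for CO against OC (3), 0 to 1 for the averaged mothers' diet (0) and 0 to 2 for OO against CO (0). For the averaged sons' diet miR-182-5p and miR-31-5p stayed past the threshold in all 19 alternatives, with limma adjusted p of 0.0018 to 0.034 for miR-182-5p and 0.00096 to 0.042 for miR-31-5p. Of the 6 nearest profiles, 3 stayed with the 10 CPM filter, which removes low rows from the comparison, and 3 to 6 on leaving out 1 library. Whole-read count models were planned and not run. No paired analysis was run, because the labels give no replicate numbers that tie libraries across groups. OO replicate 3 and OC replicate 2 share a title stem, but its meaning is not given. Depth was inferred from the steps of the CPM values, and what it limits beyond counting error was not tested.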
